A study of Mus musculus with 6 samples.

Results

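The D-type cyclins Ccnd1, Ccnd2 and Ccnd3 and their kinase partners Cdk4 and Cdk6 are 5 of the 18193 genes that the array measured under a single gene symbol. The genes were listed by name, and the group was chosen because Ccnd2 had the largest rise of any gene after loss of Dicer on these same arrays. The difference between the groups is therefore given for the 5 genes as a description, with no p-value. RNA came from feeder-free mouse embryonic stem cells (mESCs) that carried floxed Dicer alleles in both groups. Control cells received GFP alone (Dcr WT, labelled wild type for Dicer, 3 arrays) and the others received GFP and Cre recombinase (Dcr KO, labelled Dicer null, 3 arrays), each harvested 5 days after transfection. The Dcr KO cells were a polyclonal population, not a line from 1 clone. No array had Cre without the floxed alleles, so the effects of Cre and of the deletion cannot be told apart. The methods call the arrays biological triplicates.

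D-type cyclins are the regulatory subunits that bind and activate Cdk4 and Cdk6 in G1 of the cell cycle. The active kinases phosphorylate the retinoblastoma protein Rb and its relatives, which releases E2F transcription factors and starts the expression of S phase genes. Proteins of the INK4 family bind Cdk4 and Cdk6 and block them, while proteins of the CIP/KIP family, which inhibit Cdk2, also bind the cyclin D complexes. In mESCs the G1 phase is short, and cyclin E with Cdk2 is active through most of the cycle. Dicer cuts precursors into mature miRNAs, short RNAs that recognize mRNAs through the seed near their 5′ end.

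The miRNAs below need Dicer to mature. The first group belongs to the mir-295 cluster, which the study examined, and the mir-302 and mir-17-92 families carry the same or a shifted seed. The mir-15/16 family is shown because D-type cyclins and Cdk6 are among its known targets. Bases 2 to 8, the seed, are in capitals. The sequences are those of RefSeq on build GRCm38.p6, and mature miRNAs were not measured here.
miR-290a-3p: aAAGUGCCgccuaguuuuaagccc
miR-291a-3p: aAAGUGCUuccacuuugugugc
miR-291b-3p: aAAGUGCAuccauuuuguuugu
miR-294-3p: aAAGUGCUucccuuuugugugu
miR-295-3p: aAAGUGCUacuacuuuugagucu
miR-302b-3p: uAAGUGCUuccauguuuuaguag
miR-302d-3p: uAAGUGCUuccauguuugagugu
miR-17-5p: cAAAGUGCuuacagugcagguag
miR-20a-5p: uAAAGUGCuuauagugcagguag
miR-15a-5p: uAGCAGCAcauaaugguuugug
miR-16-5p: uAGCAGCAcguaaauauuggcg
miR-292-3p, of the mir-295 cluster too, is named only. The 5 printed sequences of that cluster lie on the plus strand between chr7:3218674 and chr7:3220837. Of the 11 sequences, 7 hold the hexamer AAGUGC at bases 2 to 7. Within these 7, 5 share the longer seed AAGUGCU, among them miR-294-3p, miR-295-3p and both members of the mir-302 family. In miR-17-5p and miR-20a-5p the same letters begin 1 base later, which gives the seed AAAGUGC. The pair miR-15a-5p and miR-16-5p has the unrelated seed AGCAGCA. The study's own list of candidate targets of AAGUGC miRNAs holds Ccnd1, Ccnd2 and Cdk6. Its genes were predicted targets that rose both after Dicer loss and on separate arrays of lines without the mir-295 cluster. The list was thus drawn in part from the rises on these arrays, and that part is not independent evidence of their direction. The arrays of the cluster deletion are not among the data used here.

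All values are log2 GCRMA expression values, in which a difference of 1 is a 2-fold change. A gene's value is the mean over its probe sets, and limma was run on the 8782 genes whose mean over the 6 arrays reached 16 in linear units (4 as log2). The array medians over all probe sets lay between 2.96 and 3.01. The deleted gene itself, Dicer1, was lower in Dcr KO on both of its probe sets. The brighter one read 8.29, 8.51 and 7.82 on Dcr WT replicates 1, 2 and 3 and 6.39, 6.76 and 5.95 on Dcr KO replicates 1, 2 and 3, which left 27.9% of the signal. The dimmer one left 56.5%. The position of both probe sets with respect to the floxed segment was not analysed here. The pluripotency genes Pou5f1, Sox2 and Nanog stayed bright, with log2 levels of 12.71, 13.01 and 12.14 in Dcr KO, and of 10 pluripotency markers limma called none (before adjustment, 3 higher and 2 lower had p under 0.05).

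Ccnd2, which encodes cyclin D2, stood apart from the other D-type cyclins. Its gene value was 4.65, 5.04 and 4.39 on the Dcr WT arrays and 7.42, 7.50 and 8.09 on the Dcr KO arrays. Every Dcr KO array lay more than 2 log2 units above every Dcr WT array. The group means were 4.69 ± 0.32 (SD, n = 3) and 7.67 ± 0.37 (SD, n = 3), a log2 difference of 2.98 (standard error 0.28). This was rank 1 of the 8782 differences, which is how the group was chosen. In bulk RNA, a higher level in every cell and a larger number of cells that express the gene cannot be told apart.

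Ccnd2 had 7 probe sets, more than any of the other 4 genes, and all of them read higher on each Dcr KO array than on each Dcr WT array. The brightest, 1416122_at, read 5.79, 6.30 and 6.16 in Dcr WT and 8.71, 8.80 and 9.26 in Dcr KO, a 7.16-fold difference. The widest gap was on 1448229_s_at, which read 4.07, 4.68 and 4.12 in Dcr WT and 7.40, 7.58 and 8.15 in Dcr KO, or 10.7-fold. In this array's naming, the endings _s_at and _x_at mark probe sets that can also bind other transcripts, and _a_at marks those shared by transcripts of 1 gene. The plain _at probe set 1434745_at, which has none of these endings, gave 8.82-fold. Another, 1416123_at, read 4.14, 3.55 and 2.64 in Dcr WT and 6.36, 6.33 and 7.20 in Dcr KO, and the size of its difference rests on a Dcr WT mean under the minimum.

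The probe set 1416124_at was the exception in size. It read 2.60, 2.66 and 2.38 in Dcr WT and 4.04, 4.05 and 4.87 in Dcr KO, and its mean of 3.43 was under the minimum. Its difference of 1.77 was the smallest of the 7 and lowered the mean difference of the gene. The probe sets whose Dcr WT mean was itself above the minimum, all but 1416123_at and 1416124_at, had differences from 2.84 to 3.42. On all 7 probe sets the highest Dcr KO value was that of replicate 3, the array on which both Dicer1 probe sets were lowest (5.95 and 5.89).

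**Figure D1:**
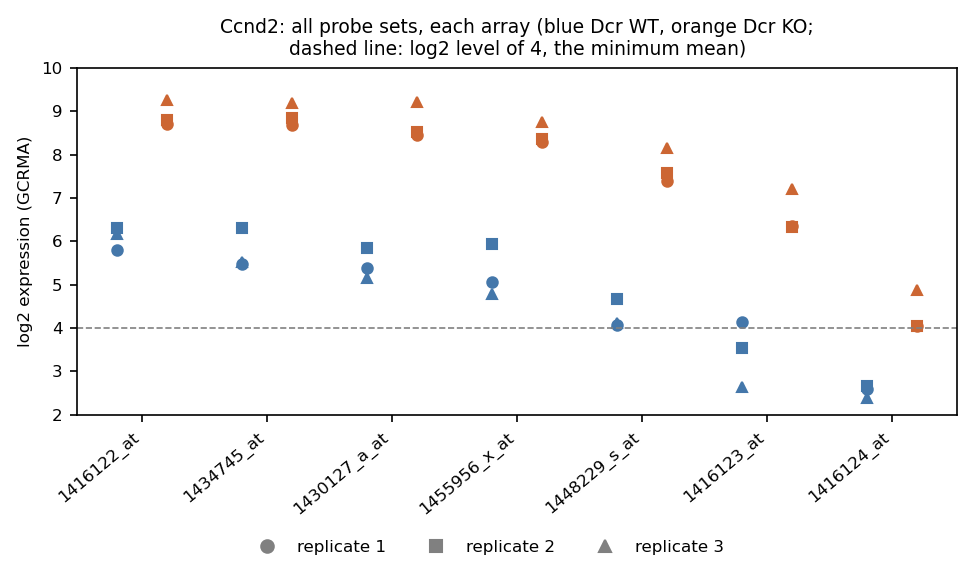
Log2 expression of each Ccnd2 probe set on each array (blue, Dcr WT; orange, Dcr KO; the symbol gives the replicate; dashed line, log2 level of 4). The groups are apart on all 7 probe sets, replicate 3 is the highest Dcr KO array on each, and 1416124_at, the dimmest, has the narrowest gap.

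Ccnd1, which encodes cyclin D1, differed far less. Its gene value was 9.42, 9.66 and 9.05 in Dcr WT and 9.77, 9.76 and 9.91 in Dcr KO. The groups did not overlap, but Dcr WT replicate 2 came within 0.2 of the lowest Dcr KO array. The difference was 0.43 (standard error 0.18), or 1.35-fold, and Ccnd1 held rank 897 by rise.

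The 3 Ccnd1 probe sets did not all separate the groups. On the brightest, 1417420_at, Dcr WT read 10.42, 10.41 and 9.86 and Dcr KO read 10.78, 10.80 and 10.82, with no overlap. On 1417419_at the values were 9.33, 9.53 and 9.02 against 9.64, 9.49 and 9.87, and on 1448698_at they were 8.52, 9.04 and 8.28 against 8.88, 8.98 and 9.03. On the former Dcr WT replicate 2 lay within the Dcr KO range, and on the latter it lay above all 3 Dcr KO arrays. Dcr WT replicate 3 was the lowest array on each of the 3, and without it the difference of the gene value was 0.27.

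Ccnd3, which encodes cyclin D3, showed how the averaging of probe sets bears on a difference. Its gene value was 4.91, 4.93 and 4.90 in Dcr WT and 5.23, 5.25 and 5.29 in Dcr KO, a difference of 0.35 with SDs of 0.02 and 0.03. That tight separation rested on 1 bright and 2 dim probe sets. The bright one, 1415907_at, read 10.62, 10.38 and 10.59 in Dcr WT and 10.74, 10.75 and 10.65 in Dcr KO, a difference of 0.18 (standard error 0.08), or 1.14-fold. Dcr WT replicate 1 and Dcr KO replicate 3 were only 0.03 apart on it.

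The dim probe sets 1438805_at and 1444323_at, with means of 2.51 and 2.12, differed by 0.46 and 0.40 near background. Deviations of the bright and dim probe sets partly cancelled within an array, so the SD of the gene value, 0.02 in Dcr WT, was below the 0.13, 0.23 and 0.30 of the single probe sets. Where the brightest probe set stood for the gene, the difference of Ccnd3 was 0.18.

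Cdk6, one of the kinase partners, was the member with the next largest difference after Ccnd2. Its gene value was 6.64, 6.57 and 6.15 in Dcr WT and 7.10, 7.12 and 7.38 in Dcr KO, a difference of 0.75 (standard error 0.18), or 1.68-fold, at rank 298. Its bright probe set 1455287_at read 8.79, 9.02 and 8.32 in Dcr WT and 9.57, 9.54 and 9.82 in Dcr KO, a 1.91-fold difference. The other bright one, 1435338_at, read 8.81, 8.72 and 8.19 against 9.49, 9.68 and 9.92, a 2.18-fold difference. Both kept the groups apart by about 0.5 or more.

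The remaining probe set of Cdk6, 1460291_at, was near background in both groups (2.31, 1.97 and 1.93 against 2.23, 2.14 and 2.39) and the groups overlapped on it. Without it the difference of Cdk6 was 1.03, a summary chosen after seeing the data. As for Ccnd2, Dcr KO replicate 3 was highest on both bright probe sets, and as for Ccnd1, Dcr WT replicate 3 was lowest. Dcr WT replicate 3 also had the lowest Dicer1 value of its group (7.82).

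Cdk4, the other kinase partner, had the smallest difference of the 5. Its gene value was 11.51, 11.36 and 11.55 in Dcr WT and 11.41, 11.42 and 11.68 in Dcr KO, and the groups overlapped. The difference was 0.03 (standard error 0.10), or 1.02-fold, at rank 3773. Its 3 probe sets gave 0.04, 0.02 and 0.04 and overlapped in each case. The sign of this difference is not settled, since it was -0.05 when replicate 3 of Dcr KO was left out and -0.02 when replicate 2 of Dcr WT was.

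**Figure D2:**
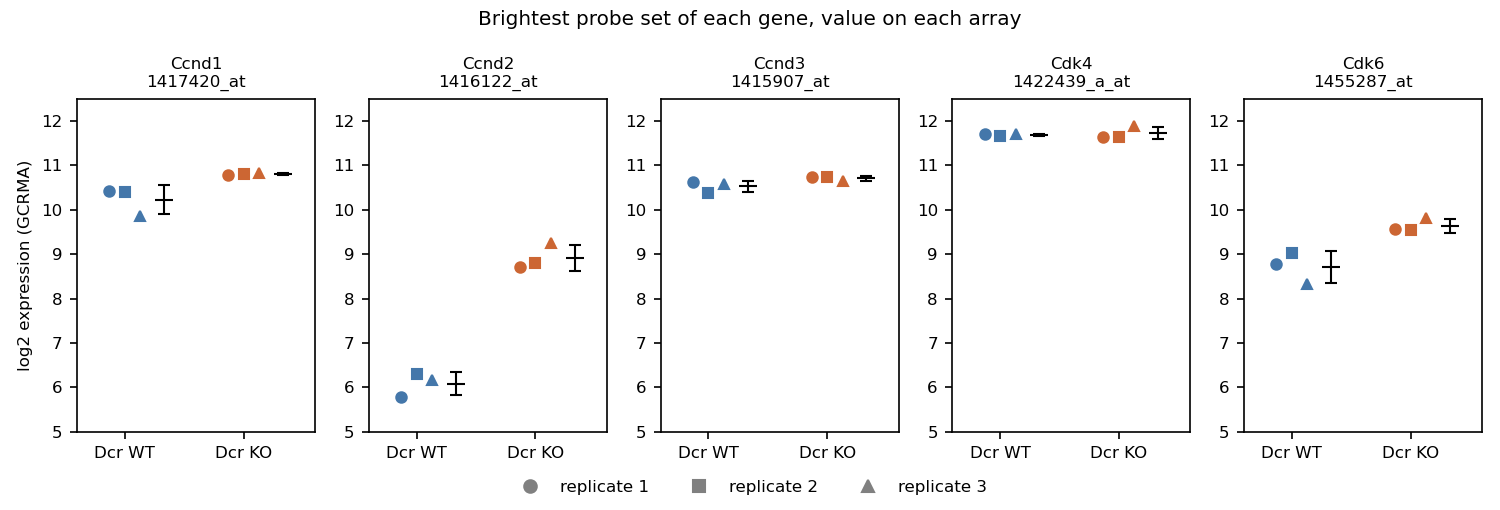
Log2 expression of the brightest probe set of each of the 5 genes on each array (points, 1 per array; horizontal mark and bars, mean and SD, n = 3). Ccnd2 and Cdk6 have a clear gap between the groups, Ccnd1 and Ccnd3 a narrow one, and Cdk4 overlaps; levels of different probe sets are not comparable with each other.

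**Figure D3:**
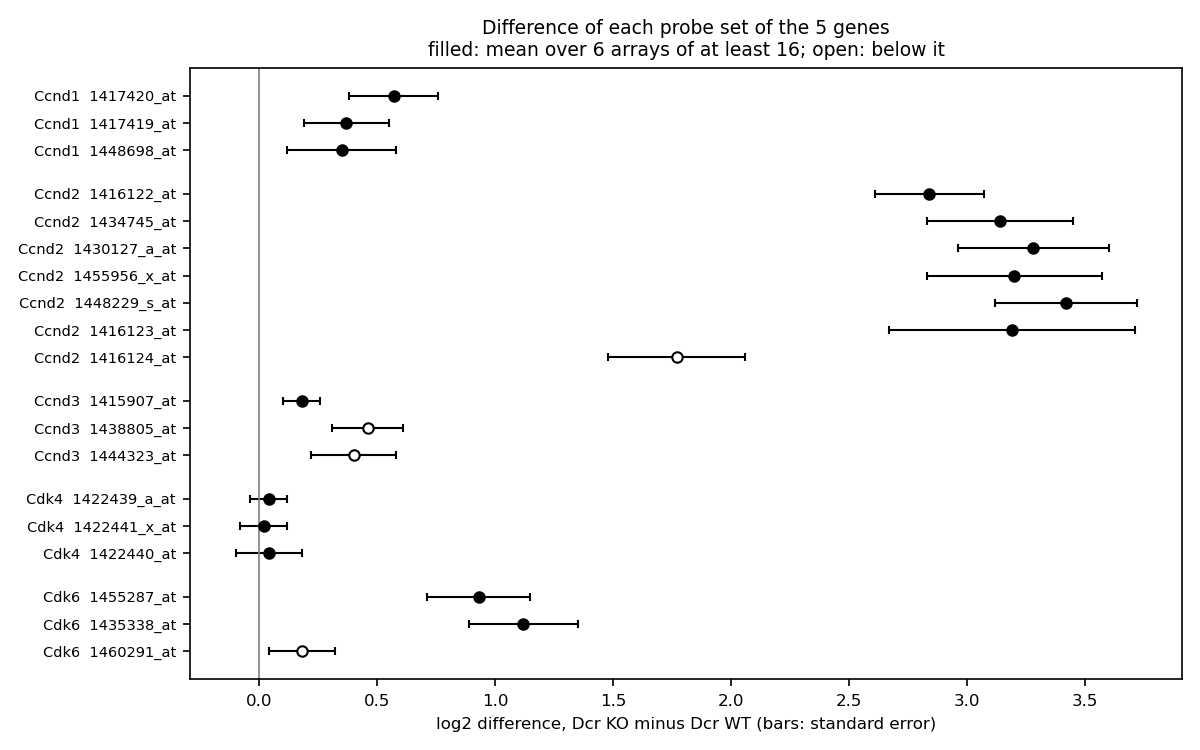
Difference in log2 expression (Dcr KO minus Dcr WT) for all 19 probe sets of the 5 genes (filled, mean of at least 16; open, below it; bars, standard error of the difference, 3 arrays a group). Those of Ccnd2 lie between 1.77 and 3.42, the bright ones of Cdk6 at 0.93 and 1.12, those of Ccnd1 between 0.35 and 0.57, and those of Cdk4 at 0.02 to 0.04.

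By gene value, 4 of the 5 genes had all Dcr KO arrays above all Dcr WT arrays, which was so for 17.7% of the 8782 genes tested, and none had all of them below, which was so for 21.2%. In the fit across all genes 3 of the 5 (Ccnd2, Cdk6 and Ccnd3) were called higher and none lower, with a median difference of 0.43 over the 5, where 6.91% of all genes were called higher and 6.42% lower. The group was chosen on this contrast, so nothing is read from these counts. On 13 of all 19 probe sets the Dcr KO arrays lay above the Dcr WT arrays, and on the other 6 the groups overlapped.

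Genes whose values moved most like those of Ccnd2 were found by the root mean square distance between centred log2 values over the 6 arrays. The 5 nearest were Ak7 (0.26), the muscle actin gene Actc1 (0.27), the collagen gene Col11a1 (0.33), Notum, which encodes an inhibitor of Wnt proteins (0.38), and Serpinb9b, a protease inhibitor gene (0.40). The centred values were not scaled, so this distance depends mostly on the size of the group difference, by which Ccnd2 was chosen. By construction it finds other genes with a large rise, and the 5 had differences from 2.33 to 2.93. Ak7 and Notum had Dcr WT means under the minimum (3.94 and 3.21) and reached it over the 6 arrays through Dcr KO. The size of their differences is thus less certain. The median distance over all other genes was 1.53. Within Dcr KO, Ak7 read 6.34, 6.59 and 7.50 and Serpinb9b 7.53, 7.80 and 9.25, so that replicate 3 was highest as in Ccnd2, whereas Actc1 read 9.36, 9.67 and 9.40.

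Genes that act on or after cyclin D and Cdk4/6, with other cyclins (15 tested) and other Cdks (13 tested), were taken from 9 lists. These lists held 106 measured genes, 91 of them tested. Of these 91, 9 rose in Dcr KO, 2 fell and 80 did not pass (limma, adjusted p under 0.05). That is 12.1% called, against 13.3% of all genes tested, so the lists together did not hold more calls than the array as a whole. At an unadjusted p under 0.05, 15 were higher and 8 lower, and the median difference was 0.03, beside -0.02 for all genes tested. The count of 9 was 3 when replicate 2 of Dcr KO was left out and 5 when replicate 3 of Dcr WT was, and that of 2 was 1 without any array other than these.

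**Figure D4:**
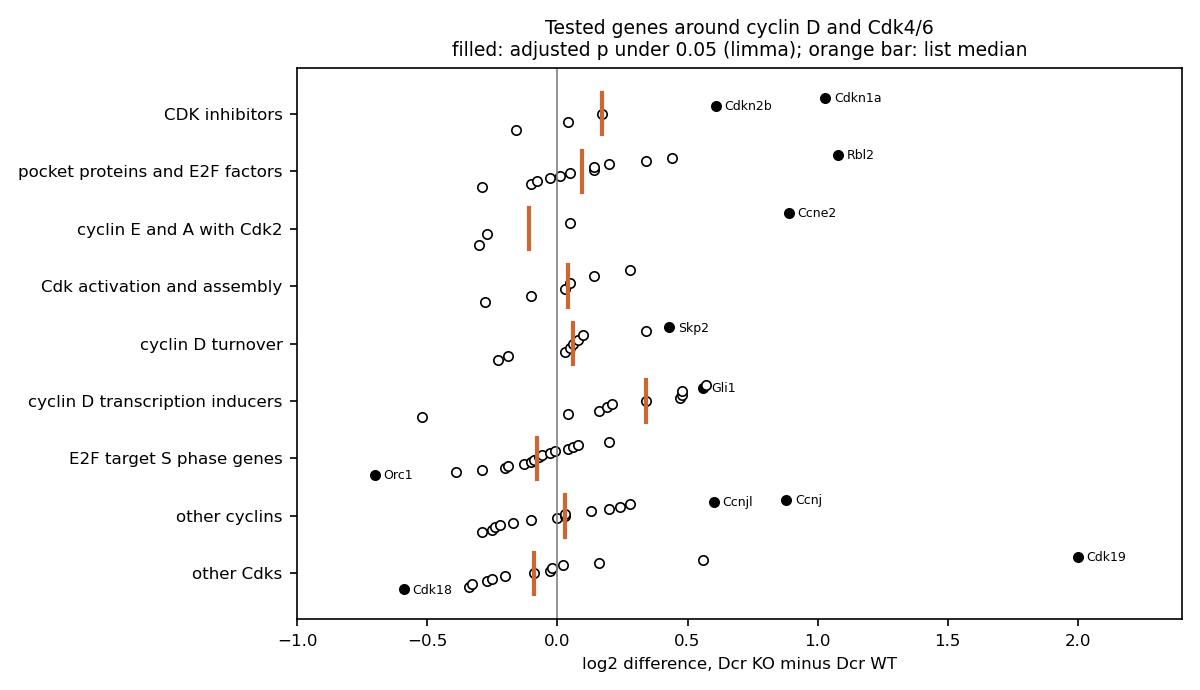
Difference in log2 expression (Dcr KO minus Dcr WT) for each tested gene of the 9 lists (1 point per gene; filled and named, adjusted p under 0.05 from limma; orange bars, median of a list; points are spread vertically only to keep them apart). Cdk19 has the largest difference, 2.00, and Orc1 the lowest, -0.70, while most genes lie near 0.

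Among the inhibitors of Cdk4/6 and Cdk2, 2 of 5 tested rose and none fell, with a list median of 0.17. Cdkn1a, which encodes p21 and belongs to the CIP/KIP family, read 7.60, 7.57 and 7.89 in Dcr WT and 8.41, 8.59 and 9.16 in Dcr KO. The log2 rise was 1.03 with a standard error of 0.20 (limma, adjusted p = 0.0189), and both of its probe sets kept the groups apart. Cdkn2b, which encodes the INK4 protein p15, read 7.23, 7.46 and 7.63 against 7.99, 8.03 and 8.13 and rose by 0.61 (adjusted p = 0.0217 from limma).

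The other tested inhibitors did not pass. They were Cdkn1c, the gene of p57 (difference 0.17), Cdkn1b, the gene of p27 (0.04), and the INK4 gene Cdkn2d (-0.16). Cdkn2a and Cdkn2c were under the minimum and were not tested. The calls of Cdkn1a and Cdkn2b were close to the threshold. Cdkn1a was lost when replicate 1 or 2 of Dcr WT or replicate 2 of Dcr KO was left out (adjusted p 0.00816 to 0.0531 over 14 alternatives), and Cdkn2b when replicate 2 or 3 of Dcr KO was (0.0185 to 0.0691 over 14). Without Dcr KO replicate 2 neither inhibitor was called.

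Of the pocket proteins and E2F factors, the substrates of cyclin D kinases and the factors they restrain, 1 of 12 tested rose and none fell. The one was Rbl2, the gene of the Rb relative p130, which read 4.13, 4.02 and 4.16 in Dcr WT and 5.41, 5.23 and 4.92 in Dcr KO. It rose 2.12-fold (1.08 as log2, adjusted p = 0.00560 from limma), from a level close to the minimum. In contrast to Ccnd2, its lowest Dcr KO array was replicate 3. Rb1 itself did not pass (difference 0.34, adjusted p = 0.153 from limma).

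The Rb1 result depended on its probe sets. The bright one, 1417850_at, read 8.87, 8.90 and 8.91 in Dcr WT and 9.43, 9.35 and 9.42 in Dcr KO, while the dim one, 1444400_at, read 3.42, 3.62 and 3.10 against 3.49, 3.12 and 4.06. Where the brightest probe set stood for each gene, Rb1 was higher by 0.51 and passed (adjusted p = 0.0159 from limma, with a range of 0.0159 to 0.355 over 14 alternatives). The third pocket protein gene, Rbl1, had a difference of 0.01. The activators E2f1 and E2f3 had differences of -0.08 and 0.14 and did not pass.

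Of the 4 tested genes of cyclin E, cyclin A and Cdk2, which act after cyclin D, 1 rose. Ccne2 read 9.14, 9.13 and 9.37 in Dcr WT and 10.22, 10.12 and 9.97 in Dcr KO, a rise of 0.89 ± 0.12 (standard error; adjusted p = 0.00570 from limma), and passed in all 14 alternatives. Its paralog Ccne1 read 10.58, 10.93 and 10.57 against 10.55, 10.47 and 10.25 and did not pass (difference -0.27, adjusted p = 0.222 from limma). Ccna2 did not pass either (-0.30, adjusted p = 0.0824 from limma) except with an intensity trend in the prior (0.0419, within 0.0419 to 0.288 over 14 alternatives), nor did Cdk2 (0.05). These paralogs thus had differences of opposite sign, a contrast that was not itself tested.

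The genes listed here as switched on by E2F factors for S phase, a list without cyclin genes such as Ccne2, did not rise with Ccnd2. Of 16 tested, limma called none higher and 1 lower in Dcr KO (before adjustment, 0 higher and 3 lower had p under 0.05), and the list median was -0.08. The lower one, Orc1, a subunit of the origin recognition complex, read 7.91, 7.80 and 7.92 in Dcr WT and 7.14, 7.30 and 7.09 in Dcr KO (difference -0.70, adjusted p = 0.00798 from limma), and it passed in all 14 alternatives. Mybl2 came next (-0.29, adjusted p = 0.0739 from limma) and passed only with that trend (0.0497, within 0.0497 to 0.227). The replicative helicase genes Mcm2 to Mcm7 had differences from -0.20 for Mcm5 to 0.04 for Mcm3, and Pcna, the sliding clamp, had -0.03.

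Genes that turn D-type cyclins over or load and activate their kinases changed little. Of 9 tested turnover genes 1 rose, the F-box gene Skp2 (0.43, adjusted p = 0.0447 from limma), and its call held in only 3 of 14 alternatives (0.0372 to 0.141). The kinase gene Dyrk1a had a difference of 0.34 and Gsk3b, whose kinase marks cyclin D1 for degradation, 0.10, and neither passed. None of 6 tested genes of Cdk activation and assembly was called by limma, 2 of them having an unadjusted p under 0.05, namely Cdk7 (0.28, adjusted p = 0.106) and Mnat1 (-0.28, adjusted p = 0.15), which are both subunits of the Cdk-activating kinase.

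Of 11 tested genes whose products are known to induce D-type cyclin transcription, 1 rose and none fell. Before adjustment, 4 were higher and 0 lower at p under 0.05 from limma. The list median was 0.34, beside -0.02 for all genes tested. Gli1, a transcription factor of Hedgehog signalling, read 5.72, 6.02 and 5.72 in Dcr WT and 6.56, 6.29 and 6.28 in Dcr KO and rose by 0.56 (adjusted p = 0.0324 from limma). Its relative Gli2 differed by 0.57 without passing (adjusted p = 0.0527 from limma). Both lay near the threshold, since Gli1 kept its call in 8 of 14 alternatives (0.0291 to 0.0996) and Gli2 passed in 5 of them (adjusted p 0.0364 to 0.144). Mycn (0.47) and Jun (0.48) had groups apart by gene value but did not pass. On the brightest probe set of Jun the groups overlapped, and that of Mycn differed by 0.27. Fos had groups apart the other way, with 11.38, 11.56 and 11.25 against 11.18, 11.16 and 10.30 (-0.52, adjusted p = 0.173 from limma). Myc varied widely, with 7.33, 7.08 and 6.39 against 6.62, 7.35 and 8.27.

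The wider families give a scale for the members. Of 15 other tested cyclin genes 2 were higher and none lower, with a median difference of 0.03. Ccnj read 6.11, 6.13 and 5.67 in Dcr WT and 7.22, 6.64 and 6.70 in Dcr KO (0.88, adjusted p = 0.0259 from limma), and its relative Ccnjl rose by 0.60 (adjusted p = 0.0350 from limma) from a level of 4.04. Leaving out replicate 3 of Dcr WT or replicate 2 of Dcr KO ended the call of Ccnj, and Ccnjl lost its call in 5 fits, those without replicates 1 or 3 of Dcr WT or replicates 1 or 2 of Dcr KO and the one with a replicate block (adjusted p 0.0246 to 0.113). Of the 13 other tested Cdk genes 1 rose and 1 fell.

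Cdk19, a kinase of the Mediator complex, was the Cdk gene with the larger rise. It read 5.56, 5.42 and 5.02 in Dcr WT and 7.44, 7.22 and 7.36 in Dcr KO, a rise of 2.00 ± 0.15 (standard error; adjusted p = 0.00100 from limma), and passed in all 14 alternatives. Its paralog Cdk8 differed by -0.33 and did not pass (adjusted p = 0.0775 from limma). Cdk18 fell by 0.59 (adjusted p = 0.0232 from limma), a call lost when replicate 1 or 2 of Dcr WT or replicate 1 or 3 of Dcr KO was left out. The mitotic kinase gene Cdk1 differed by -0.25 and did not pass. The study's list of candidate targets, drawn in part from these arrays, also holds Cdkn1a, Ccnj, Skp2 and, under an older symbol, Cdk19, and it holds Mycn, Ccng1 and Rrm2, which did not pass (differences of 0.47, 0.28 and 0.20). Apart from that list, the study reports that a luciferase reporter with the 3′ untranslated region of Cdkn1a was repressed in Dcr WT relative to Dcr KO cells. It also cites earlier work that named Rbl2 as a target of the cluster.

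**Figure D5:**
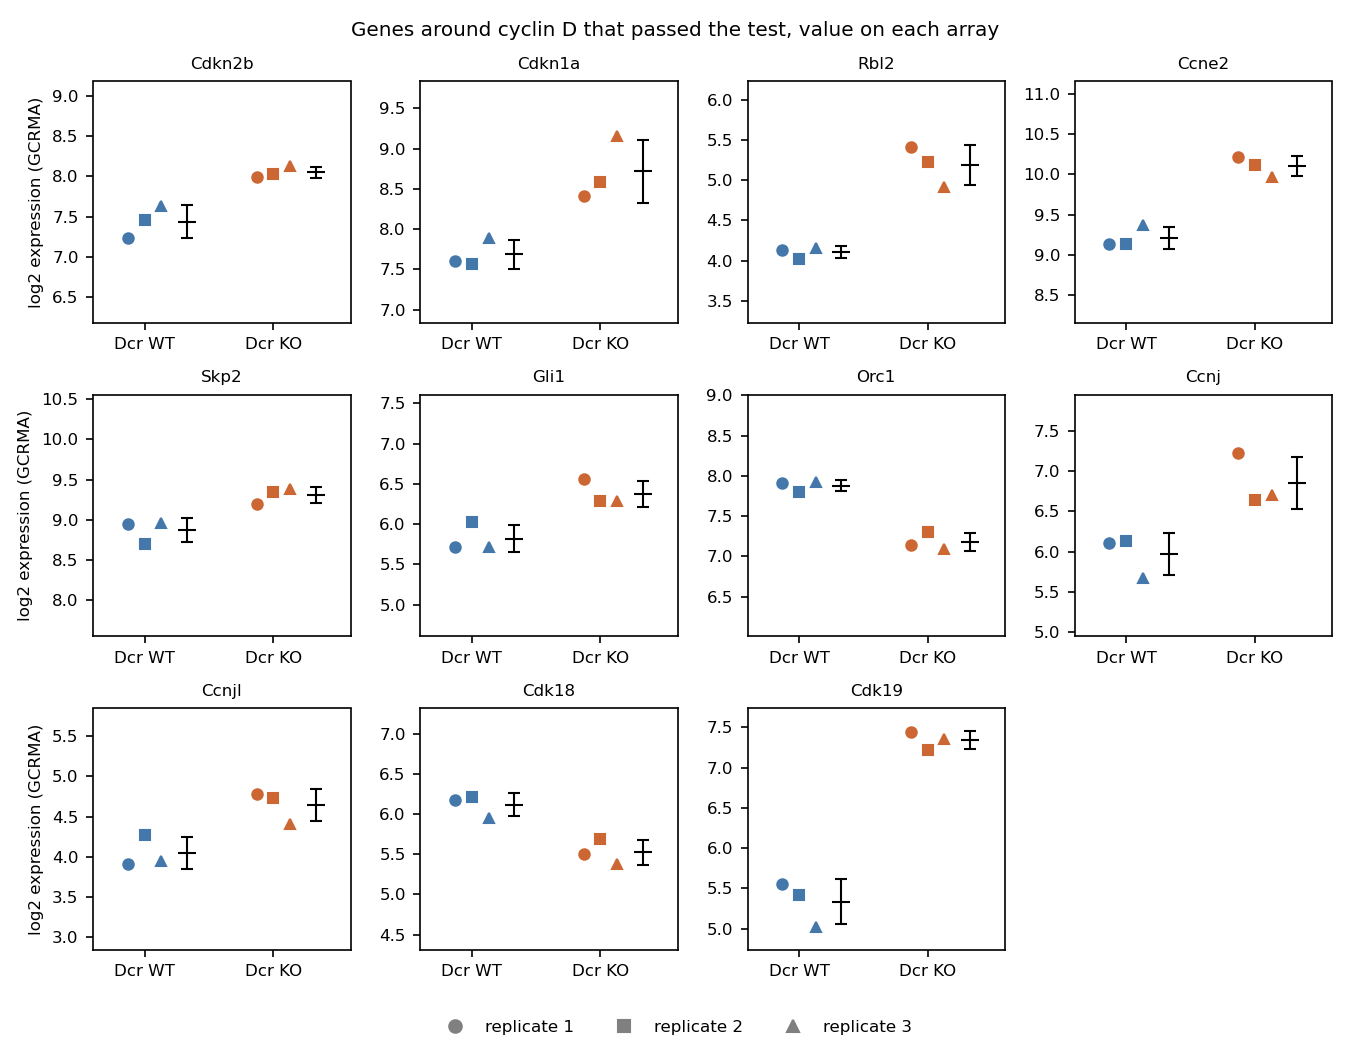
Log2 expression of the 11 genes of the 9 lists that passed the test, on each array (points, 1 per array; horizontal mark and bars, mean and SD, n = 3; each panel spans 3 log2 units). In all 11 the Dcr KO arrays lie apart from the Dcr WT arrays, above them except for Orc1 and Cdk18.

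Markers of other cell types were mostly dim. Of 6 neural markers 2 were tested and 1 rose, Tubb3, a neuronal tubulin gene (difference 0.73, adjusted p = 0.0100 from limma). The progenitor marker Nes had a difference of -0.07 (adjusted p = 0.759 from limma). The log2 of the summed level of the 6 was 8.36 to 8.58 in Dcr WT and 9.05 to 9.25 in Dcr KO. Most of this sum came from Tubb3. The neural factors Sox1 and Pax6 had low levels of 3.30 and 2.92 in Dcr KO and were not tested. For both, all Dcr KO arrays lay above all Dcr WT arrays (differences of 0.89 and 0.58). The same held for Map2 (0.21) and Pax3 (0.33), which were also dim and not tested. The summed levels of the primitive endoderm, trophectoderm and fibroblast markers overlapped between the groups. Only 1 of 7, 2 of 6 and 2 of 8 of them reached the minimum, and none of those tested passed. Most of the trophectoderm sum came from Krt7, which had a difference of 0.04. Gata3 (difference 0.84, adjusted p = 0.0621 from limma) and the untested Cdx2 (0.48) had all Dcr KO arrays above all Dcr WT arrays. The other trophectoderm markers overlapped. Among the fibroblast markers that were not tested, directions were mixed. Col3a1 (difference 1.22), Postn (0.72) and Dcn (0.65) had all Dcr KO arrays above all Dcr WT arrays. Col1a2 (-0.71) and Thy1 (-0.62) had all of them below, and Lum (-0.06) overlapped. The summed level of the primitive streak and epiblast markers was 7.75 to 8.24 in Dcr WT and 7.37 to 7.60 in Dcr KO. Of 8 measured, 3 were tested and limma called none (before adjustment, 0 higher and 2 lower had p under 0.05). Otx2 (-0.92, adjusted p = 0.0604 from limma), Mixl1 (-0.64) and the untested Fgf5 (-1.19) had all Dcr KO arrays below all Dcr WT arrays. The others overlapped, among them Eomes (-0.26) and the dim Gsc (0.42) and Evx1 (0.34). The part of other cell types in the rise of Ccnd2 was not tested.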

How the data were processed

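The authors deposited a table of log2 values for 45037 probe sets on the 6 arrays of mouse embryonic stem cells. GCRMA 2.20.0 and R 2.11.1 stand in the submitters' processing notes. Other arrays normalized with these 6, if any, are not given in the sources used here, and GCRMA may leave dim probe sets less certain. No array column was left unused (0). Gene names come from the platform annotation, in which 34945 probe sets had 1 symbol and were used, 932 had several and 9160 had none here.

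Log2 values were averaged over a gene's probe sets, which is a geometric mean on the linear scale. Genes whose mean reached 16 (8782) entered the comparison of Dcr KO with Dcr WT in limma 3.58.1 under R 4.3.3 (lmFit, then eBayes), with p adjusted by the Benjamini-Hochberg method over all of them and called at 0.05. The code was tested on simulated data. Standard errors of the 5 genes come from the 2 group SDs, and those of other genes from limma. The number of arrays limits the precision. The members and gene lists were chosen with earlier results of these data known. Named from each list are the genes that passed (at most 6), and where fewer than 2 passed, those with the smallest adjusted p up to 2, and other genes were named after their values were seen. Alternatives were another probe set summary, normalization, filter, prior, a replicate block and leaving out each array. Figures were drawn with matplotlib 3.10.9.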

Additional observations from a re-analysis of the deposited data

How the results depend on the processing

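The differences of Ccnd1, Ccnd2, Ccnd3 and Cdk6 stayed positive in every alternative run. With 1 array left out at a time they lay between 0.27 and 0.57 for Ccnd1, 2.77 and 3.15 for Ccnd2, 0.33 and 0.36 for Ccnd3, 0.59 and 0.84 for Cdk6, and -0.05 and 0.08 for Cdk4, whose sign turned when replicate 2 of Dcr WT (-0.02) or replicate 3 of Dcr KO (-0.05) was left out. For Ccnd1, Ccnd2, Ccnd3 and Cdk6 the choice of probe sets moved the difference more than either normalization did, and Cdk4 gave 0.06 after quantile normalization. Single probe sets gave 0.57, 0.37 and 0.35 for Ccnd1 and 3.42 and 1.77 for Ccnd2. They gave 0.18, 0.46 and 0.40 for Ccnd3, and 1.12 and 0.18 for Cdk6. The brightest probe set gave 0.18 for Ccnd3, and only those whose mean reached 16, a setting chosen after seeing the data, gave 0.18 for Ccnd3 and 1.03 for Cdk6. Over all genes, 607 were called higher and 564 lower. A minimum mean of 64 gave 404 higher, with 5771 genes tested, and leaving out 1 array gave 220 to 465 higher and 137 to 376 lower, both lowest when replicate 2 of Dcr KO was left out and next lowest (284 and 155) when replicate 3 of Dcr WT was. Of the genes in the lists around cyclin D, 9 were higher and 2 lower. Leaving out 1 array gave 3 to 8 higher and 1 to 2 lower, with 3 higher when replicate 2 of Dcr KO was left out and 5 when replicate 3 of Dcr WT was. The minimum of 64 gave 1 lower, and a prior variance with an intensity trend gave 5 lower. Deviations of same-numbered Dcr WT and Dcr KO arrays correlated across genes at -0.217, -0.022 and 0.029. The highest values fell on differently numbered arrays. They were 0.238 for Dcr WT replicate 1 with Dcr KO replicate 3, 0.314 for 2 with 1 and 0.157 for 3 with 2. The remaining pairs lay between -0.227 and -0.136. Whether the transfections were paired cannot be read from these values, and the replicate block follows the replicate numbers only. With a replicate block, 354 genes were higher and 243 lower, and Skp2, Gli1 and Ccnjl were not called (adjusted p = 0.0893, 0.0713 and 0.0544 from limma). Where a cause is not given above, the cause was not tested. With 3 arrays a group and dim probe sets near background, small differences such as that of Cdk4 cannot be told from 0.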

Other observations

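Several genes around cyclin D were under the minimum and entered no test, though their groups did not overlap. Cdkn2a, whose transcripts encode the INK4 protein p16 and the p53 activator ARF, read 2.96, 2.15 and 2.92 in Dcr WT and 3.60, 4.27 and 4.28 in Dcr KO. All 6 values lie near background, so the size of its difference, 1.37, is uncertain. Ccno read 3.65, 3.49 and 3.65 against 3.86, 4.09 and 3.93. Ccna1, a cyclin A gene used mainly in the germ line, was lower in Dcr KO (2.69, 2.96 and 2.88 against 2.63, 2.23 and 2.42), as was Fbxo4, whose F-box protein takes part in cyclin D1 turnover (3.67, 3.99 and 3.88 against 3.32, 3.43 and 3.64). On the brighter Fbxo4 probe set, 1427121_at, the groups overlapped (5.04, 5.57 and 5.18 against 4.54, 4.88 and 5.05).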
